A study of Mus musculus with 6 samples.

Results

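The heart-muscle transcripts described here are those of 10 genes, *Myh6*, *Myh7*, *Actc1*, *Tnnt2*, *Tnni3*, *Myl2*, *Myl3*, *Nppa*, *Mb*, and *Pln*, out of the 53715 genes counted in mouse cerebellum. They were chosen by name as cardiac sarcomere and heart-enriched genes after their difference between genotypes in these same mice had been seen. The difference of the 10 genes between genotypes is therefore given as a description, with no test. RNA-Seq was performed on the whole cerebellum of 6 male mice on a C57BL/6 background (C57BL/6J in the methods) at 4 weeks of age, 3 control mice and 3 neuron-specific knockout (*Slc39a8*-NSKO) mice. The *Slc39a8*-NSKO mice carry floxed *Slc39a8*, the gene of a transporter for manganese and other metal ions, deleted by a Cre recombinase under the synapsin I promoter, which acts in neurons and not evenly across brain regions, so that other cells keep the gene. The labels call the control mice WT, whereas the study's text names *Slc39a8* fl/fl mice as controls, and the counts do not tell these apart. The methods state 3 mice per genotype as biological replicates, whereas a legend speaks of technical triplicates, in which case the spread given here would not be that between animals.

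Heart muscle contracts when the myosin heads of the thick filament pull on actin in the thin filament, and the troponin complex on the thin filament makes this depend on calcium. The atria and ventricles use their own myosin chains, and the rodent heart exchanges its fetal myosin heavy chain for the adult one around birth. Cerebellum holds no heart muscle, and its striated-muscle transcripts are usually rare.

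The 10 genes lie on 9 chromosomes, and only *Myh6* and *Myh7* adjoin each other. The promoters of 5 genes are shown as 250 bases of GRCm38.p6 before the RefSeq start of transcription, because they belong to the genes with the highest ratios between genotypes and to *Myh7*, the paralog next to *Myh6* that did not share its direction. Each is written 5′ to 3′ on the strand of the gene, and capitals mark the motifs that were searched on both strands. These were the TATA box TATAAA, the TEAD site CATTCC, the GATA site (AGATAA or TGATAA, or the same with a last G, AGATAG or TGATAG), the CArG box bound by SRF, and the MEF2 site, and a match on the other strand is printed as its reverse complement.
Myh6, chr14:54966608-54966857, minus strand: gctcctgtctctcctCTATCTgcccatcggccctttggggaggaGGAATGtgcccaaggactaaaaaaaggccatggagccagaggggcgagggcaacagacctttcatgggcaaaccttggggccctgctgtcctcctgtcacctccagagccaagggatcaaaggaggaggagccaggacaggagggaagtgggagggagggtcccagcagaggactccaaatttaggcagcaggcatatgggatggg
Myh7, chr14:54994627-54994876, minus strand: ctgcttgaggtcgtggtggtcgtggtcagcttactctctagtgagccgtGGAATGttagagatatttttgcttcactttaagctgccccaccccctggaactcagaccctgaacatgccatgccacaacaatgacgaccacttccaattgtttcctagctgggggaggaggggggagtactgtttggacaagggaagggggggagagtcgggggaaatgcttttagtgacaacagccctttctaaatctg
Actc1, chr2:114052876-114053125, minus strand: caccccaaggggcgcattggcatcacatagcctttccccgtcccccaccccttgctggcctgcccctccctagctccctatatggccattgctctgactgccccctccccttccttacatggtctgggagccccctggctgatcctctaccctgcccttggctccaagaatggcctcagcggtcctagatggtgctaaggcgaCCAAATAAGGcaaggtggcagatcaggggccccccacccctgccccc
Nppa, chr4:148000472-148000721, plus strand: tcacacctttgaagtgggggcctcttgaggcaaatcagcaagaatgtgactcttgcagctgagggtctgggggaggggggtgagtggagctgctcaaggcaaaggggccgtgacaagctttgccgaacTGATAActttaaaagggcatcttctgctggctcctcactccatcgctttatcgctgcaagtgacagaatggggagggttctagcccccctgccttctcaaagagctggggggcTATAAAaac
Myl3, chr9:110763428-110763677, plus strand: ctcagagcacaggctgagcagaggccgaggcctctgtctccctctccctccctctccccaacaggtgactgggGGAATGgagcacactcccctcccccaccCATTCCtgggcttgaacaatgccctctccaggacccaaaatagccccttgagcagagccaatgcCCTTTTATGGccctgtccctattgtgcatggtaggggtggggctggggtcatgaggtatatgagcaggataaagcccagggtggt

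The *Myh6* sequence holds a GATA match 235 to 230 bases before the start and a TEAD match 206 to 201 bases before it. A TEAD match at a similar place, 201 to 196 bases before the start, is the one match in the *Myh7* sequence. *Actc1* has a CArG box 47 to 38 bases before the start, and *Myl3* has one 85 to 76 bases before it. The *Nppa* sequence holds a GATA match 122 to 117 bases before the start and TATAAA 9 to 4 bases before it. Over the 15 promoters listed for the 10 genes, the CArG box was in 2 (13.3%), against 1.47% of all 32851 promoters of that length. The TEAD site was in 4 of the 15 (26.7%, against 12.6% of all), the GATA site in 5 (33.3%, against 26.5%), and TATAAA in 3 (20.0%, against 12.4%). The MEF2 site was in none of the 15 and in 2.92% of all promoters. A match of letters is a description and does not show that a factor binds there.

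Summed counts on genes ranged from 14431245 to 20844248 per mouse, and levels are given as CPM, the counts of a gene scaled to a library of 1000000 counts, with library sizes adjusted by TMM, which sets a common scale from the bulk of the genes. *Slc39a8*, the targeted gene, had 99, 46, and 44 counts in the controls against 38, 40, and 41 counts in *Slc39a8*-NSKO cerebellum. Its level was 3.60 ± 1.04 CPM in control and 2.04 ± 0.138 CPM in *Slc39a8*-NSKO mice (SD, n = 3), with no overlap, and its log2 fold change of -0.83 (SE 0.237) did not pass edgeR's quasi-likelihood test after Benjamini-Hochberg adjustment (adjusted p = 0.534). Across 16330 genes with enough counts to test, 4 were higher in *Slc39a8*-NSKO mice at an adjusted p below 0.05 (0.0245% of those tested) and 12 were lower (0.0735%). Of the 4 higher genes, 3 belong to the 10 heart-muscle genes, which were chosen on this contrast. The share of 0.0245% is therefore not independent of them, and the result is not used as a test of them. All 12 markers of cerebellar neurons and glia were detected, and their summed level was 16890 to 18076 CPM in control and 17363 to 18170 CPM in *Slc39a8*-NSKO mice. More cells of a type and more RNA per cell cannot be told apart in such bulk RNA.

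The 10 heart-muscle genes together had 88, 67, and 52 counts in the 3 control mice, compared with 304, 350, and 304 counts in the 3 *Slc39a8*-NSKO mice. The summed level was 4.25, 4.66, and 3.34 CPM in control and 15.2, 18.0, and 16.1 CPM in *Slc39a8*-NSKO mice. Every *Slc39a8*-NSKO mouse was thus above every control mouse, and the means of 4.08 ± 0.674 and 16.4 ± 1.40 CPM (SD, n = 3) gave a ratio of 4.03. Even so, the sum was small, at 1 count in 60805 in *Slc39a8*-NSKO and 1 in 244954 in control cerebellum. Of the 10 genes, 7 had their lowest *Slc39a8*-NSKO mouse above their highest control mouse, and the genotypes overlapped for *Myh7*, *Tnni3*, and *Pln*. The same pattern was seen in 4.28% of all 27187 genes with a count, and nothing is read from this comparison since the genes were selected on this contrast. Only 7 of the 10 genes had enough counts to enter the test across all genes, and *Myh7*, *Myl3*, and *Nppa* did not. Among the genes tested, 5.07% did not overlap with *Slc39a8*-NSKO higher, as did 5 of these 7 genes.

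**Figure D1:**
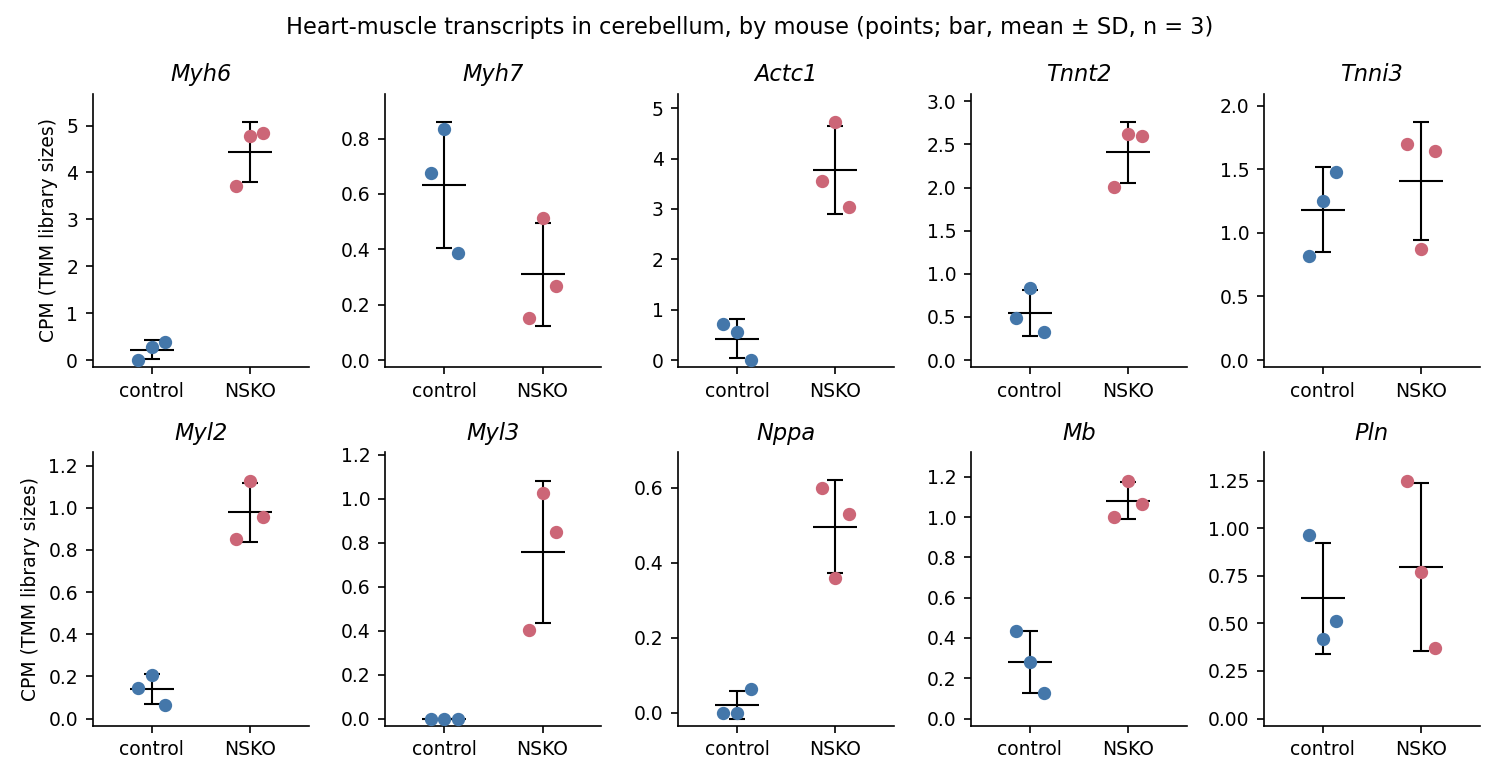
Level of each of the 10 heart-muscle genes in each mouse, in CPM on a linear scale that differs between panels; points are mice, and bars give the mean ± SD of 3 control and 3 *Slc39a8*-NSKO mice. The 7 genes other than *Myh7*, *Tnni3*, and *Pln* have every *Slc39a8*-NSKO mouse above every control mouse.

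In the thick filament, *Myh6* encodes myosin heavy chain alpha, the fast motor of the adult rodent ventricle. It lies on the minus strand at chr14:54941921-54966927 of GRCm38 and had 0, 4, and 6 counts in control cerebellum, compared with 73.83, 92.9, and 91 counts in the knockout. All 3 *Slc39a8*-NSKO mice were far above the control mice and within a narrow range, with a coefficient of variation of 14.3% where counting alone gives 10.8%. The means were 0.221 ± 0.199 CPM and 4.44 ± 0.636 CPM (SD, n = 3), a ratio of 20.1. From the pooled counts of each genotype, the ratio was 22.4 with an exact 95% interval of 12.0 to 47.3, and such intervals cover counting error only.

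*Myh7*, at chr14:54970684-54994626, encodes myosin heavy chain beta, the slow motor of the fetal rodent ventricle and of slow skeletal fibers. It had 14, 12, and 6 counts in the controls against 3.17, 10.1, and 5 counts in *Slc39a8*-NSKO cerebellum. The genotypes overlapped, and the means lay in the other direction to *Myh6*, at 0.632 ± 0.228 and 0.310 ± 0.186 CPM (SD, n = 3), a ratio of 0.490. Per kilobase of transcript, the mean level of *Myh7* was above that of *Myh6* in control mice (0.101 and 0.0362 CPM per kilobase), and that of *Myh6* was above *Myh7* in *Slc39a8*-NSKO mice (0.726 and 0.0497 CPM per kilobase). The paralogs share sequence: 330 of 5964 windows of a read's length along the main *Myh6* transcript (5.53%) were also found in *Myh7* or the antisense RNA *Mhrt*, and *Myh6* counts were not whole in 2 mice. With both genes added, the level was 0.853 ± 0.230 CPM in control and 4.75 ± 0.779 CPM in *Slc39a8*-NSKO mice (SD, n = 3), still without overlap, and the ratio was 5.57. *Gm49130*, which overlaps *Myh6* on the other strand, had 0 counts in every control mouse and 5, 3, and 2 counts in *Slc39a8*-NSKO mice. Where the counting did not use strand, which is not stated, these reads cannot be told from those of *Myh6*.

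The light chains that sit on the myosin neck were few in control cerebellum. *Myl2*, at chr5:122100951-122113472, encodes the ventricular regulatory light chain and had 3, 3, and 1 counts in the 3 control animals and 17, 22, and 18 counts in the 3 knockout animals. Its genotypes did not overlap, and the mean was 0.139 ± 0.0723 CPM in control and 0.979 ± 0.141 CPM in *Slc39a8*-NSKO mice (SD, n = 3), a ratio of 7.03. *Myl3*, at chr9:110741861-110769798, encodes the ventricular essential light chain. It had no count in any control mouse and 8, 20, and 16 counts in *Slc39a8*-NSKO mice. Its level in *Slc39a8*-NSKO mice was 0.759 ± 0.323 CPM (SD, n = 3). Set against a floor of 3 counts over the control group, its pooled counts gave a ratio of 12.8. This ratio leaves out the counting error of the *Slc39a8*-NSKO counts and is not a strict lower limit. A gene with no count in control and a count in every *Slc39a8*-NSKO mouse was found in 0.291% of the 27187 genes with a count, and the opposite pattern in 0.169%. *Myl2* and *Myl3* overlap the antisense genes *Ccdc63* and *Pth1r*, which had 108 to 139 and 156 to 235 counts per mouse, many more than the light chains. With *Pth1r* added to *Myl3*, and with *Ccdc63* added to *Myl2*, the genotypes overlapped.

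In the thin filament, *Actc1* encodes the actin of heart muscle and lies at chr2:114047282-114053548. It had 15, 8, and 0 counts in control cerebellum, compared with 71, 92, and 57 counts in the knockout. The genotypes were well apart, at 0.427 ± 0.379 CPM and 3.77 ± 0.868 CPM (SD, n = 3), a ratio of 8.83. An antisense entry named *A530058N18Rik* overlaps *Actc1* and had 3.05, 1.23, and 3.05 counts in the controls against 9.73, 2, and 1.29 counts in *Slc39a8*-NSKO mice. With both added, the genotypes were still apart. *Tnnt2*, at chr1:135836354-135852260, encodes cardiac troponin T, which ties the troponin complex to tropomyosin. It had 10, 12, and 5 counts in the controls against 40, 51, and 49 counts in *Slc39a8*-NSKO cerebellum, again without overlap. The means of 0.546 ± 0.262 and 2.41 ± 0.351 CPM (SD, n = 3) gave a ratio of 4.41. The spread of *Tnnt2* among *Slc39a8*-NSKO mice, a coefficient of variation of 14.6%, was no larger than counting alone gives.

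*Tnni3*, at chr7:4518305-4524229, encodes cardiac troponin I, the inhibitory subunit of the same complex, and behaved otherwise. It had 17, 18, and 23 counts in the 3 control animals and 34, 17, and 31 counts in the 3 knockout animals. The genotypes overlapped, and the second *Slc39a8*-NSKO mouse, which had the highest sum of the 10 genes, had as few *Tnni3* counts as the first control mouse. Its means of 1.18 ± 0.334 and 1.41 ± 0.464 CPM (SD, n = 3) gave a ratio of 1.19, and the pooled counts a ratio of 1.23 with an exact 95% interval of 0.867 to 1.75. *Tnni3* overlaps *Dnaaf3*, a gene of cilium assembly on the same strand, which had 11 to 25 counts per mouse.

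The roles outside the filaments were covered by *Nppa*, *Mb*, and *Pln*. *Nppa*, at chr4:148000722-148002079, encodes atrial natriuretic peptide, the hormone that the atria secrete on stretch, and had 0, 0, and 1 counts in control cerebellum, compared with 12.12, 7, and 9.93 counts in the knockout. The genotypes did not overlap, and the pooled counts gave a ratio of 25.2 with an exact 95% interval of 4.18 to 1030, so that its size is poorly known. Of its windows, 33.0% are also found in the antisense gene *Gm13054*, which had 2, 4, and 2 counts in the controls against 8.88, 0, and 8.07 counts in *Slc39a8*-NSKO cerebellum. With both added, the level was 0.189 ± 0.0909 CPM in control and 0.789 ± 0.375 CPM in *Slc39a8*-NSKO mice (SD, n = 3), and the genotypes were still apart.

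*Mb*, at chr15:77015487-77050670, encodes myoglobin, which holds oxygen in heart and in oxidative skeletal fibers. It had 8.63, 4, and 2 counts in the 3 control animals and 20, 23, and 20 counts in the 3 knockout animals, with no overlap. Its level of 1.08 ± 0.0913 CPM in *Slc39a8*-NSKO mice varied less between mice than counting alone gives, and was 3.86 times the 0.280 ± 0.153 CPM of control mice (SD, n = 3). Of the *Mb* windows, 27.1% are also found in the antisense gene *Gm49540*, which had 1.37, 0, and 0 counts in the controls and none in *Slc39a8*-NSKO mice. With both added, the genotypes were still apart. *Pln*, at chr10:53337667-53345987, encodes phospholamban, the inhibitor of the calcium pump of the sarcoplasmic reticulum in heart, smooth and slow skeletal muscle. It had 19.86, 6, and 7.58 counts in control cerebellum, compared with 24.65, 14.84, and 7.03 counts in the knockout. The genotypes overlapped, at 0.632 ± 0.292 and 0.798 ± 0.441 CPM (SD, n = 3), with a ratio of 1.26, and the log2 fold change in edgeR turned from 0.29 to -0.19 when the first *Slc39a8*-NSKO mouse was left out. More than for any other of the 10 genes, 54.1% of *Pln* windows occur in another gene's transcript, the antisense *Gm47644*, and *Pln* lies within *Cep85l*, which had 433 to 715 counts per mouse on the other strand.

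Levels can be set against each other between genes only per length, here as CPM per kilobase of the main transcript. In control cerebellum, *Tnni3* was highest at 1.30 ± 0.366 CPM per kilobase, followed by *Tnnt2* (0.455), *Actc1* (0.290), *Pln* (0.271), *Mb* (0.254), *Myl2* (0.157), *Myh7* (0.101), *Myh6* (0.0362), *Nppa* (0.0248), and *Myl3* (0). In *Slc39a8*-NSKO cerebellum, *Actc1* was highest at 2.56 ± 0.589 CPM per kilobase, followed by *Tnnt2* (2.01), *Tnni3* (1.54), *Myl2* (1.10), *Mb* (0.980), *Myl3* (0.810), *Myh6* (0.726), *Nppa* (0.575), *Pln* (0.342), and *Myh7* (0.0497). Of the neighbors in these orders, mean ± SD did not meet only for *Tnni3* and *Tnnt2* in control and for *Pln* and *Myh7* in *Slc39a8*-NSKO mice. *Myh6*, with a transcript of 6113 bases, was number 8 of 10 per length in control and number 7 in *Slc39a8*-NSKO mice.

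The make-up of the summed signal was similar among the 3 *Slc39a8*-NSKO mice for the genes with most counts. As a share of the counts, not corrected for length, *Myh6* made up 24.3%, 26.6%, and 29.9% of the sum in *Slc39a8*-NSKO mice. Pooled over mice, this was 26.9% (exact Clopper-Pearson 95% interval 24.1 to 29.9) against 4.83% (2.34 to 8.70) in control mice. *Actc1* made up 23.4%, 26.3%, and 18.8%, and *Tnnt2* 13.2%, 14.6%, and 16.1%. These were the 3 largest shares in each *Slc39a8*-NSKO mouse. *Mb* stayed close to 6.58% in all 3 and was 7.25% (4.11 to 11.7) of the pooled control sum. The control sum was made up otherwise and varied between mice. *Tnni3* made up 19.3%, 26.9%, and 44.2% of it in the 3 control mice, *Pln* 22.7%, 8.96%, and 15.4%, and *Myh7* 15.9%, 17.9%, and 11.5%, and *Pln* was the largest share in the first control mouse. Pooled over control mice, *Tnni3* was at 28.0% (22.0 to 34.7), *Pln* at 16.4% (11.7 to 22.2), and *Myh7* at 15.5% (10.8 to 21.1), which were 8.56%, 4.91%, and 1.88% in *Slc39a8*-NSKO mice. *Myl3* had 0 of 207 counts in control, which allows a share of up to 1.77% by the same exact method, and 4.59% (3.36 to 6.12) in *Slc39a8*-NSKO mice.

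**Figure D2:**
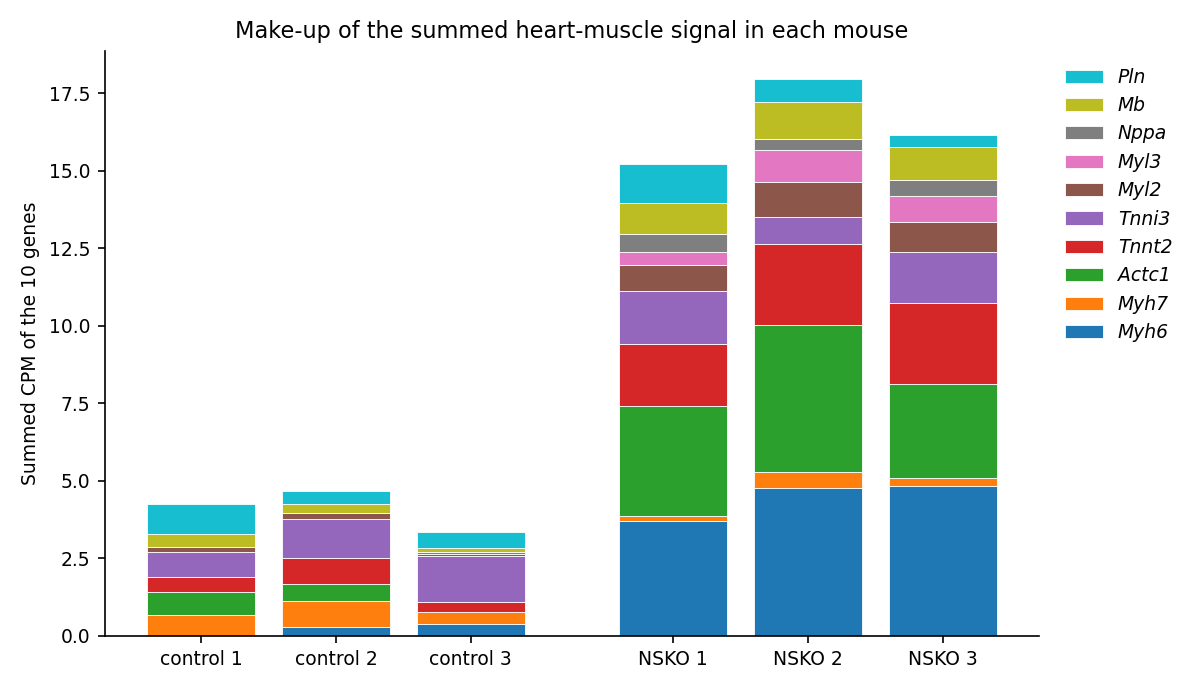
Summed CPM of the 10 heart-muscle genes in each mouse, stacked by gene on a linear axis from 0. The 3 *Slc39a8*-NSKO mice reach 15.2 to 18.0 CPM and the 3 control mice 3.34 to 4.66 CPM, and *Myh6*, *Actc1*, and *Tnnt2* are the largest pieces in each *Slc39a8*-NSKO mouse.

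The other genes of the heart-muscle program were taken from 5 lists. Of 30 other sarcomere and Z-disc genes, 19 were tested, and none passed the threshold, with a median log2 fold change of 0.10 beside 0.00 over all 16330 genes. At an unadjusted p below 0.05, 2 of them were higher and 0 lower in *Slc39a8*-NSKO mice, beside 2.25% and 3.14% of all genes tested, and none passed DESeq2. *Ankrd1*, a stress-responsive titin-binding protein, had 7, 13, and 0 counts in the controls against 43, 38, and 20 counts in *Slc39a8*-NSKO cerebellum. These did not overlap, and its log2 fold change of 2.09 (SE 0.592) did not pass edgeR's quasi-likelihood test after Benjamini-Hochberg adjustment (adjusted p = 0.534). *Tnnc1*, the calcium-binding troponin C of heart and slow muscle, had 29, 18, and 6 counts in the 3 control animals and 41, 32, and 40 counts in the 3 knockout animals. It too did not overlap, and its log2 fold change of 0.91 (SE 0.369) did not pass the same edgeR test after Benjamini-Hochberg adjustment (adjusted p = 0.881). Both were named after their values were seen. In this list 4 tested genes did not overlap with *Slc39a8*-NSKO higher (*Tnnc1*, *Actn2*, *Tpm1*, and *Ankrd1*), and 2 with *Slc39a8*-NSKO lower (*Tcap* and *Smpx*), beside 5.07% and 5.26% of all genes tested. The tropomyosin *Tpm1* and the chaperone *Cryab* were the most abundant of the list, at 132 ± 1.27 and 80.9 ± 2.47 CPM in control and 138 ± 4.47 and 79.4 ± 2.94 CPM in *Slc39a8*-NSKO mice (SD, n = 3), so that broadly expressed genes dominate the summed level of the list. This was 359 to 365 CPM in control and 372 to 381 CPM in *Slc39a8*-NSKO mice, apart but by a ratio of 1.04.

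Of the 11 sarcomere and Z-disc genes with too few counts for the test, the mean level was higher in *Slc39a8*-NSKO mice for 7 and lower for 4. For 4 of the 11 every *Slc39a8*-NSKO mouse was above the controls (*Myl7*, *Csrp3*, *Lmod2*, and *Myom2*), beside 4.28% of all genes with a count, and 2 of them had no control count and a count in every *Slc39a8*-NSKO mouse, beside 0.291%. Of the 4 untested energy metabolism genes, all had the higher mean in *Slc39a8*-NSKO mice, and 2 (*Ckm* and *Ckmt2*) did not overlap, beside the same 4.28%. The share of all untested genes with a higher mean was not taken. Nothing is therefore read from the counts of higher and lower means, here or in the lists below. The atrial light chain *Myl7* had no count in control mice, compared with 3, 3, and 2 counts in *Slc39a8*-NSKO mice. *Csrp3*, the muscle LIM protein of the Z-disc, had no count in control and 3, 1, and 2 counts, and the mitochondrial creatine kinase *Ckmt2* had none in control and 2, 4, and 3 counts. *Lmod2*, which lengthens thin filaments, had 0, 0, and 1 counts in control cerebellum, compared with 4, 4, and 3 counts in the knockout, and the creatine kinase *Ckm* had 1, 2, and 0 against 6, 3, and 6 counts. *Myom2*, of the M-band, had 5, 3, and 4 against 9, 12, and 5 counts. These 6 were named after their values were seen, and at so few counts no size is given. *Myl4*, the fetal and atrial essential light chain, was among the tested genes, with a log2 fold change of 0.55 and overlapping genotypes. It had 19, 26, and 6 counts in control mice and 34, 23, and 30 in the knockout. Of the untested genes, the Z-disc gene *Myoz2* had 2, 4, and 2 against 1, 3, and 3 counts, with the lower mean in *Slc39a8*-NSKO mice. The means of the actin-binding *Xirp1* and *Xirp2* and of the ubiquitin ligase *Trim63* were also lower in *Slc39a8*-NSKO mice, at 10 counts or fewer in each mouse.

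In the other lists of heart genes, no gene passed the threshold either. Of their tested genes, *Cox6a2* and *Npr3* did not overlap with *Slc39a8*-NSKO higher and *Srf* with *Slc39a8*-NSKO lower. This stands beside 5.07% and 5.26% of all genes tested. Of 15 calcium handling and conduction genes, 9 were tested, none passed, and the median log2 fold change was -0.04. *Atp2a2*, the calcium pump that phospholamban inhibits, had 1026 ± 38.1 CPM in control and 1065 ± 62.5 CPM in *Slc39a8*-NSKO mice, and the calcium release channel *Ryr2* had 223 ± 14.6 and 212 ± 15.4 CPM (SD, n = 3). Both are also used by neurons. Sarcolipin (*Sln*), an atrial inhibitor of the same pump, had 40, 21, and 24 counts in control mice and 33, 21, and 18 in the knockout. Of 14 energy metabolism genes, 10 were tested and none passed (median -0.03), with the fatty acid carrier *Fabp3* at 64.0 ± 5.36 and 62.4 ± 3.96 CPM and the glycogen phosphorylase *Pygm* at 61.5 ± 4.22 and 59.9 ± 1.84 CPM in control and *Slc39a8*-NSKO mice (SD, n = 3).

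Around *Nppa*, the 6 other genes of the natriuretic peptide system included 5 that were tested, and none passed (median 0.02). The receptors *Npr2* and *Npr1* had 61.3 ± 4.92 and 12.0 ± 1.87 CPM in control and 61.9 ± 6.23 and 12.9 ± 1.23 CPM in *Slc39a8*-NSKO mice (SD, n = 3). The ventricular hormone *Nppb* had 0, 2, and 0 counts in the controls against 2, 3, and 3 counts in *Slc39a8*-NSKO cerebellum. Of 15 cardiac transcription factors, 6 were tested and none passed (median -0.02). *Mef2d* and *Mef2a*, which neurons also express, had 230 ± 10.9 and 160 ± 2.27 CPM in control and 222 ± 14.7 and 160 ± 10.4 CPM in *Slc39a8*-NSKO mice (SD, n = 3). The heart-restricted *Nkx2-5* had no count in control mice and 1, 0, and 0 counts in the knockout, and *Tbx20* had none in control and 4, 0, and 1 counts. *Irx4* had 2, 0, and 1 counts against none, *Myocd* 3, 0, and 0 against 1, 0, and 0, and *Hand1* none in any mouse. Of the 9 untested factors, the mean was higher in *Slc39a8*-NSKO mice for 6 and lower for 2, and all overlapped.

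**Figure D3:**
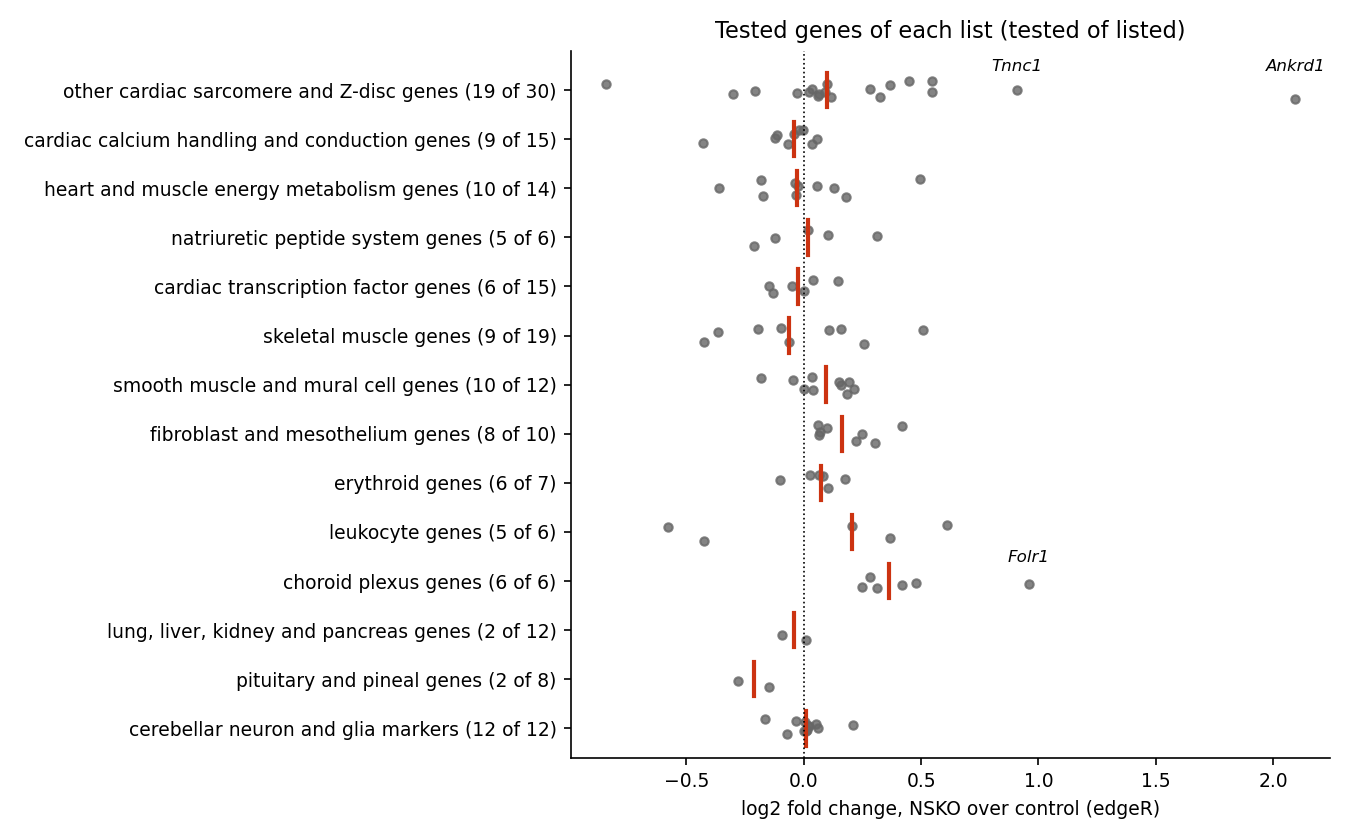
Log2 fold change of *Slc39a8*-NSKO over control, from edgeR, for every tested gene of the 14 lists other than the 10 heart-muscle genes; points are genes, the vertical bar of each row is the list's median, and numbers give genes tested of genes listed. No point passed the threshold, and *Ankrd1* (2.09) lies farthest to the right.

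Markers of other tissues that could carry striated-muscle RNA or lie near the cerebellum were counted in the same way, and none of these genes passed the threshold in edgeR or DESeq2. Of 19 skeletal muscle genes, 9 were tested (median -0.06), and the summed level was 61.2 to 64.7 CPM in control and 52.3 to 60.7 CPM in *Slc39a8*-NSKO mice. *Mybpc1* made up most of this sum, and without it the other 18 genes summed to 5.85 to 13.1 CPM in control and 9.72 to 10.8 CPM in *Slc39a8*-NSKO mice, which overlapped. The fast myosins *Myh2* and *Myh4* and the Z-disc gene *Myot* had no count in any mouse, and every other gene of the list had counts. Among these, *Mylpf* had 26, 19, and 1 counts in control mice and 21, 15, and 14 in the knockout. *Myog* had 20, 21, and 0 against 20, 8, and 16 counts, and *Myh1* had 1, 5, and 0 against 2, 1, and 5. The genotypes overlapped for all 3 of these. *Mybpc1* was at 52.5 ± 4.44 and 45.8 ± 4.80 CPM, and the skeletal actin *Acta1* at 2.76 ± 1.14 and 3.12 ± 0.0712 CPM in control and *Slc39a8*-NSKO mice (SD, n = 3). Of 12 smooth muscle and mural cell genes, 10 were tested (median 0.09), with *Rgs5* at 81.3 ± 3.76 and 81.4 ± 5.05 CPM and *Pdgfrb* at 16.9 ± 2.28 and 15.0 ± 1.76 CPM (SD, n = 3). The summed level of this list was 136 to 145 CPM in control and 131 to 152 CPM in *Slc39a8*-NSKO mice.

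Among these lists of other tissues, the fibroblast and mesothelium list was the one whose summed level was higher in every knockout mouse. Of its 10 genes, 8 were tested (median 0.16), 3 were higher at an unadjusted p below 0.05 (beside 2.25% of all genes tested), and the summed level was 87.5 to 91.1 CPM in control and 94.0 to 110 CPM in *Slc39a8*-NSKO mice, without overlap. Its genes *Col1a1* and *Col3a1*, named after their values were seen, did not overlap with *Slc39a8*-NSKO higher, beside 5.07% of all genes tested. *Col1a2*, a chain of fibrillar collagen, was at 27.9 ± 1.73 and 33.2 ± 3.53 CPM, and *Pdgfra* at 17.4 ± 2.22 and 18.3 ± 0.973 CPM in control and *Slc39a8*-NSKO mice (SD, n = 3). The 6 choroid plexus genes, which mark the epithelium that makes cerebrospinal fluid, were all tested (median 0.37), 2 were higher at an unadjusted p below 0.05 (beside the same 2.25%), and the summed level was 753 to 1091 CPM in control and 883 to 1532 CPM in *Slc39a8*-NSKO mice. *Ttr* and *Kl* had 891 ± 161 and 17.5 ± 4.40 CPM in control and 1105 ± 327 and 23.3 ± 6.48 CPM in *Slc39a8*-NSKO mice (SD, n = 3). *Folr1*, a folate receptor named after its values were seen, was the 1 gene of this list that did not overlap, beside the same 5.07%. It was at 2.34 ± 0.332 and 4.58 ± 1.06 CPM (SD, n = 3), and did not pass edgeR's quasi-likelihood test after Benjamini-Hochberg adjustment (log2 fold change 0.96, adjusted p = 0.228). The highest choroid plexus level (1532 CPM) and the highest heart-muscle level (18.0 CPM) were both in the second *Slc39a8*-NSKO mouse. The other *Slc39a8*-NSKO mice had choroid plexus levels of 1038 and 883 CPM and heart-muscle levels of 15.2 and 16.1 CPM. The second control mouse was above these mice in choroid plexus level (1091 CPM) and below them in heart-muscle level (4.66 CPM). The part of fibroblast and mesothelium or choroid plexus tissue in the heart-muscle signal was not tested.

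The remaining lists overlapped between genotypes or were lower in *Slc39a8*-NSKO mice. Of 7 erythroid genes, 6 were tested (median 0.07), and the summed level was 235 to 536 CPM in control and 350 to 557 CPM in *Slc39a8*-NSKO mice, led by the globins *Hbb-bs* (177 ± 62.7 and 188 ± 46.6 CPM) and *Hba-a2* (109 ± 44.0 and 115 ± 30.4 CPM; SD, n = 3). Of 6 leukocyte genes, 5 were tested (median 0.20), with sums of 10.3 to 12.2 and 10.8 to 15.6 CPM, led by *Lyz2* (6.65 ± 0.695 and 7.63 ± 0.630 CPM) and *Ptprc* (1.98 ± 0.493 and 1.33 ± 0.422 CPM; SD, n = 3). Of 12 genes of lung, liver, kidney, and pancreas, 2 were tested (median -0.04), 4 had no count in any mouse, and the sums were 3.13 to 3.60 and 2.90 to 3.35 CPM, led by *Cela1* (1.92 ± 0.231 and 1.81 ± 0.396 CPM) and *Apoa2* (0.764 ± 0.0568 and 0.773 ± 0.0230 CPM; SD, n = 3). Of 8 pituitary and pineal genes, 2 were tested (median -0.21), with sums of 7.07 to 7.63 and 5.36 to 6.93 CPM, led by *Tshb* (4.48 ± 0.494 and 4.05 ± 0.486 CPM) and *Pomc* (2.41 ± 0.366 and 2.0 ± 0.344 CPM; SD, n = 3). The 12 cerebellar markers had a median of 0.01, led by *Mbp* (4688 ± 319 and 4460 ± 543 CPM) and *Itpr1* (2430 ± 384 and 2815 ± 97.9 CPM; SD, n = 3). Over the 172 genes of the 14 lists, 109 were tested and 0 passed the threshold in edgeR or in DESeq2, while 8 were higher and 1 was lower at an unadjusted p below 0.05 in edgeR, beside 2.25% and 3.14% of all genes tested.

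**Figure D4:**
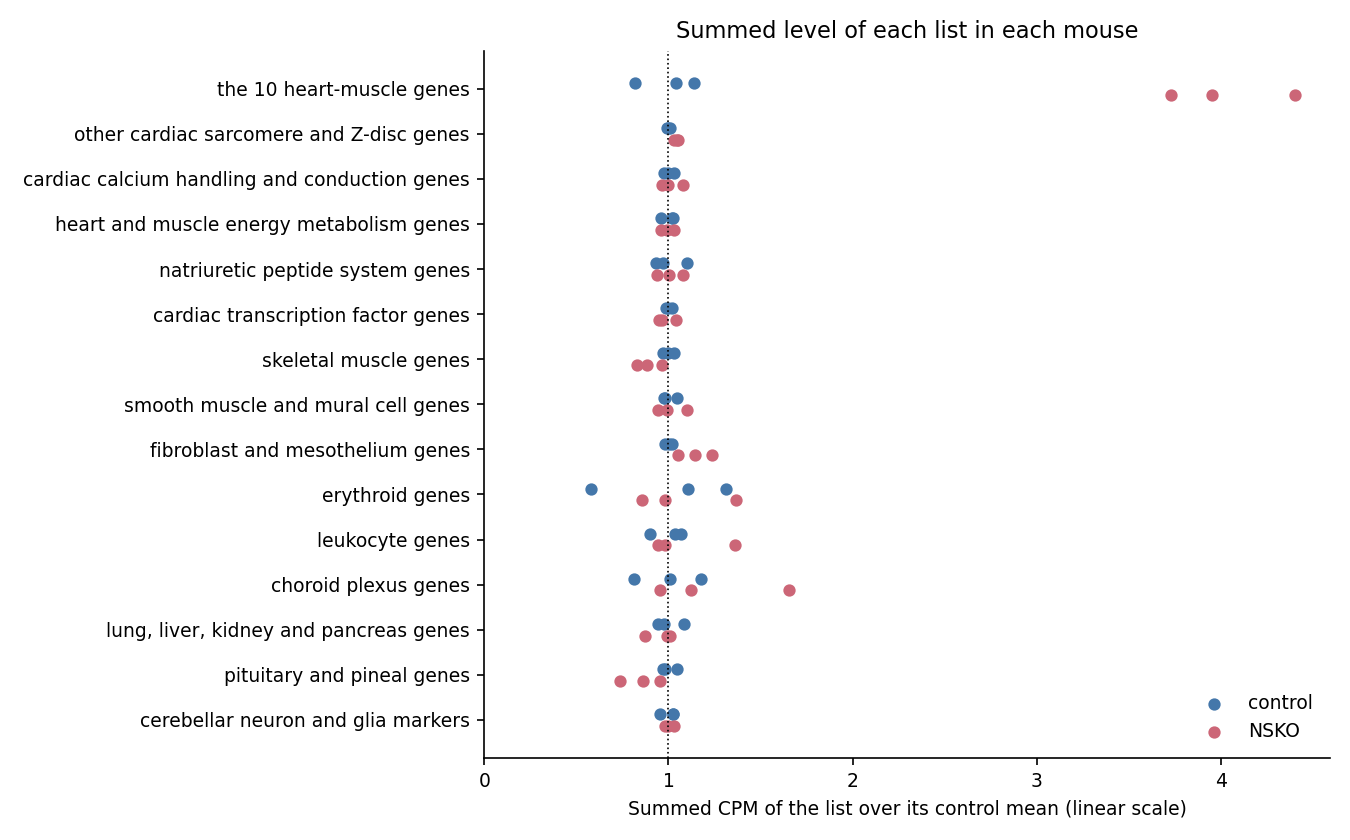
Summed CPM of each list in each mouse, divided by the list's mean over the 3 control mice, on a linear axis from 0 with a dotted line at 1. The 10 heart-muscle genes, which were selected on this contrast, stand at about 4 times the control mean in the *Slc39a8*-NSKO mice, and every other list's mean ratio lies between 0.849 and 1.24.

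The genes that adjoin the 10 heart-muscle genes did not pass the test. The nearest tested gene on each side gave 18 genes, at 2.18 to 226 kb, and their log2 fold changes ran from -0.17 (*Lad1*) to 0.21 (*Syt5*) with a median of -0.01. None passed in edgeR's quasi-likelihood test after Benjamini-Hochberg adjustment (lowest adjusted p = 0.908) or in DESeq2, and 1 of them, *1110038F14Rik* near *Mb* (0.20), was higher at an unadjusted p below 0.05. *Cmtm5*, 2.65 kb from *Myh6*, had 73.1 ± 4.72 CPM in control and 70.8 ± 7.46 CPM in *Slc39a8*-NSKO mice, and *Clcn6*, 2.18 kb from *Nppa*, had 92.3 ± 2.54 and 91.4 ± 2.49 CPM (SD, n = 3). Close by *Tnnt2*, at 3.01 kb, *Lad1* had 0.589 ± 0.428 and 0.511 ± 0.265 CPM (SD, n = 3). A second entry named *A530058N18Rik*, 15.0 kb from *Actc1* and not the one that overlaps it, had a log2 fold change of -0.05. The log2 fold changes of the others were -0.03 for *Ngdn* on the far side of *Myh7*, -0.04 for *Aqr* beside *Actc1*, -0.09 for *Igfn1* beside *Tnnt2*, and 0.01 for *Ppp1r12c* beside *Tnni3*. They were 0.09 for *Cux2* and -0.05 for *Ppp1cc* beside *Myl2*, 0.01 for *Ccdc12* and 0.08 for *Tmie* beside *Myl3*, -0.01 for *2510039O18Rik* beside *Nppa*, 0.05 for *Rbfox2* beside *Mb*, and -0.05 for *Slc35f1* and 0.05 for *Gm20597* beside *Pln*.

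Among the heart-muscle genes that were tested, log2 CPM followed that of the sum over the 6 mice with a Pearson r of 0.995 for *Myl2*, 0.979 for *Tnnt2*, 0.957 for *Mb*, 0.924 for *Actc1*, and 0.922 for *Myh6*, but 0.20 for *Pln* and 0.183 for *Tnni3*. Each gene is itself a part of the sum, and the 6 points fall into the 2 genotypes, so that these values describe the mice and carry no test. Of the 16323 other genes tested, the 10 with the highest r were *Ctnnbl1* (0.997), *Rpp25* (0.988), *Ngef* (0.987), *Lyplal1* (0.984), *Zfp777* (0.981), *Tnpo2* (0.978), *Gm45779* (0.975), *Cpxm2* (0.973), *Tmco4* (0.972), and *Git1* (0.971). None of them is a muscle gene of the lists, and their log2 fold changes ran from 0.04 for *Tnpo2* to 0.68 for *Cpxm2*. None passed edgeR's quasi-likelihood test after Benjamini-Hochberg adjustment (lowest adjusted p = 0.407, for *Ngef*). Over the 6 mice, 26 genes had an r of 0.95 or more.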

How the data were processed

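Total RNA from 1 cerebellum per mouse was sequenced as paired-end reads after oligo-dT priming. Per the labels and methods, the authors aligned the reads to mouse (mm10) with STAR and counted them with RSEM. The expected counts per gene were deposited by the authors with no normalization. Versions, the annotation release, and the strand setting are not given in the sources used here. Expected counts were rounded to whole numbers. The table lists 53807 rows, of which 92 are spike-in sequences (at most 5 counts in a mouse) that were left out. GENCODE M21 contains 53620 of the 53715 genes, 51464 of them in the same version, and gave names, positions, and transcript lengths.

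Genotypes were compared in R 4.3.3 by edgeR 4.0.16 with its quasi-likelihood test (TMM, filterByExpr, no covariate) on all 6 mice, with Benjamini-Hochberg adjustment over all genes tested and a threshold of 0.05. It was tested on simulated counts. The p values set the difference between genotypes against the spread of these samples within each genotype. The alternatives were DESeq2 1.42.0, RLE or total library size, filters of 10 counts per mouse or none, a replicate block, leaving out single mice, *Myh6* and *Myh7* added, sums without leading genes, and Spearman's rho.

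The heart-muscle genes, the 14 other lists, and the rule for named genes were chosen with earlier results of these data known. Named were the 10 heart-muscle genes, list genes past the threshold, the 2 most abundant genes of each list, the neighbors, and the 10 genes with the highest r (log2 CPM, prior count 2) with the sum. Other list genes and the antisense partners were named after their values were seen. Promoter sequences come from RefSeq on GRCm38.p6. The floor for a group without counts was 3 counts over the group.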

Additional observations from a re-analysis of the deposited data

How the results depend on the processing

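Against 16 genes past the threshold (4 higher in *Slc39a8*-NSKO mice), DESeq2 gave 37 (8 higher), no filter beyond 1 count 178 (66 higher), a filter of at least 10 counts in every mouse, which removes *Myh6*, *Actc1*, and *Tnnt2*, 11 (0 higher), and leaving out each mouse 9 (without the second *Slc39a8*-NSKO mouse) to 38 (without the first control mouse). The replicate block gave 41 genes (9 higher) and no list gene. Mice of the same number correlated by 0.142, 0.116, and 0.0104. The first and second values were the highest of any control and *Slc39a8*-NSKO pair, and the third was below the minimum of 0.1 set for pairing. Not every mouse correlated best with its own number. The main test took no pairing, and these values do not settle whether the numbers pair the mice. Of the 172 list genes, 0 passed, 5 (*Folr1*, *Ankrd1*, *Itpr1*, *Kl*, and *Ttr*) with no filter, and 0 to 1 with a mouse left out (*Itpr1*, without the first control mouse). The ratio of the heart-muscle sum, 4.03, was 3.11 without *Myh6*, 2.02 without *Myh6*, *Actc1*, and *Tnnt2*, which have the most counts, and 3.69 to 4.33 with a mouse left out. The log2 fold change of *Myh6*, 4.43, was 2.50 with *Myh7* added. That of *Pln*, 0.29, ran from -0.19 (without the first *Slc39a8*-NSKO mouse) to 0.77 (without the first control mouse). The cause of the other changes in these counts was not tested. The directions of *Actc1*, *Tnnt2*, *Myl2*, and *Mb* held under each alternative run for them. With every *Slc39a8*-NSKO mouse above every control mouse, leaving out a mouse could not turn these. For *Tnni3*, whose genotypes overlapped, the log2 fold change stayed above 0 but ran from 0.04 (without the first control mouse) to 0.52 (without the second *Slc39a8*-NSKO mouse). By Spearman's rho, 20 genes tied at 1, and 1 of the 10 most similar genes by Pearson's r was among them. *Myl3*, *Nppa*, and *Myh7* had too few counts for the filter of the main test.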
